A study of Mus musculus with 36 samples.

Results

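Ptk7 and 9 receptors or polarity proteins that act with it in noncanonical Wnt signaling were followed through the transcriptomes of mouse intestinal organoids, as 10 of the 52636 genes listed in each library. The genes were chosen by name. They comprised the Wnt receptors Ptk7, Ror1, Ror2 and Ryk, and the planar polarity genes Vangl1, Vangl2, Celsr1, Celsr2, Prickle1 and Scrib. All 10 symbols matched exactly 1 Ensembl identifier, and 9 of the 10 genes were detected.

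Noncanonical Wnt ligands such as Wnt5a signal without stabilizing β-catenin, through Frizzled receptors and co-receptors of the Ror, Ryk and Ptk7 families, to small GTPases, Jun kinase and intracellular calcium. In planar cell polarity, the transmembrane proteins Vangl and Celsr and the cytoplasmic protein Prickle form complexes at cell borders that orient an epithelium within its plane, and Scrib is a scaffold that binds Vangl. Ptk7 is a transmembrane protein with a catalytically inactive kinase domain, and its extracellular part can be shed by the membrane protease MMP14 or by ADAM17.

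The organoids were grown from jejunal crypts of C57BL/6 mice, 6 animals in all, whose age the labels do not give. Every culture received either IgG or an antibody against Ptk7 (anti-Ptk7), in IntestiCult organoid medium (complete media), in this medium with concentrated medium conditioned by quiescent (QCM) or senescent (SCM) mouse embryonic fibroblasts, or in complete media with added Wnt5a. IgG was given in all 4 media and anti-Ptk7 in SCM and in Wnt5a, which makes 6 conditions with 6 replicate libraries each, 36 in all. The antibody was therefore compared with IgG in SCM and in Wnt5a, and its effect in complete media or QCM was not analysed here. SCM and Wnt5a were compared with the same 6 complete media libraries, and their differences are therefore given side by side. Since anti-Ptk7 binds the protein, the Ptk7 transcript is no check of the antibody labels. Levels are given in CPM, counts relative to the library total after TMM scaling, as mean ± SD over 6 libraries. Unless another test is named, a gene passed when edgeR's quasi-likelihood test gave a Benjamini-Hochberg adjusted p under 0.05 with a fold change over 1.5. Where libraries of compared conditions are said not to overlap, the share of all genes that did so was not counted.

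Each library held between 9581589 and 21029769 counts (median 13490071) and counts for between 17418 and 20474 genes. Epithelial markers (Epcam, Cdh1, keratins, Vil1, Cdx1 and Cdx2) summed to between 9014 and 35490 CPM in every library. Of 12 fibroblast markers, 9 had a mean under 0.5 CPM, and Col3a1, Thy1 and Dcn were at 0 in all 36 libraries. The cultures held the epithelial transcripts, and most of the 12 fibroblast markers were at or near 0. Detected among the 12 were Vim, with condition means of 2.0 to 5.4 CPM, and Pdgfrb, with 1.1 to 4.1 CPM. Fn1 averaged 18.05 CPM in Wnt5a + IgG and 27.03 CPM in Wnt5a + anti-Ptk7, and 0.3615 CPM or less in the other conditions. Over all genes, replicate 1 lay apart from the other libraries of its condition in the 4 SCM and Wnt5a conditions. The median chi-square per degree of freedom between it and the others was 37.5 to 74.7 there, against 13.8 to 20.1 among the others, and 17.1 and 17.2 in complete media and QCM. The calls are therefore also given with all 6 replicate 1 libraries left out, a choice made after the values were seen. In bulk RNA, more cells of a type and more transcript per cell cannot be told apart.

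Ptk7 lies on the reverse strand of mouse chromosome 17 (GRCm38, chr17:46564471-46629504), and the annotated lincRNA Gm26904 lies across it on the opposite strand without sharing exonic bases. Gm26904 held 1732 counts over all libraries. Vangl1 shared 8 exonic bases with Gm16160, which held 18 counts. The promoter of Ptk7 is shown because its level differed between conditions. Beside it are the promoters of Mmp14 and of the metalloprotease inhibitor Timp2, which were both higher in Wnt5a, and that of Ror2, the Wnt5a receptor whose level passed no test. The sequences are RefSeq's for GRCm38.p6, 300 bases each, from 250 before to 50 after the start of the gene, in its reading direction. Promoter entries of RefSeq were matched for Ptk7, Ror1, Ror2, Ryk, Vangl2, Celsr2 and Prickle1, and were not matched for Vangl1, Celsr1 and Scrib. Capitals mark the TEAD motif GGAATG and the AP-1 motif TGANTCA, searched on both strands.
Ptk7 (chr17:46629455-46629754, reverse strand): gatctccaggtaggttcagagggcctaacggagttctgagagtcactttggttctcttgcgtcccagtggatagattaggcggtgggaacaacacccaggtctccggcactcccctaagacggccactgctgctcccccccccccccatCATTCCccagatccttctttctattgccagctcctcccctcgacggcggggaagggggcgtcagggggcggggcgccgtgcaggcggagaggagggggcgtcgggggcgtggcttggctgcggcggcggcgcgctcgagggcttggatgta
Mmp14 (chr14:54431348-54431647, forward strand): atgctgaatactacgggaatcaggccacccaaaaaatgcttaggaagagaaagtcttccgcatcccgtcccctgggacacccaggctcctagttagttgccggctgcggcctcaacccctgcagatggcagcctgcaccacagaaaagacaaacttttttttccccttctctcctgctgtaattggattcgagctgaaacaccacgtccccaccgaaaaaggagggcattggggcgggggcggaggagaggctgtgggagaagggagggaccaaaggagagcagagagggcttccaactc
Timp2 (chr11:118355362-118355661, reverse strand): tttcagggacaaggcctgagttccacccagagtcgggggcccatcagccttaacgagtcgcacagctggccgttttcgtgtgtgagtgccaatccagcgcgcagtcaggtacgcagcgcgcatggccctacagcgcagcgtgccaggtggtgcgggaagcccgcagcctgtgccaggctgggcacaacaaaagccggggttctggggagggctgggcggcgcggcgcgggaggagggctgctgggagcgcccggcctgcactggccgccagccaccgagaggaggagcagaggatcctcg
Ror2 (chr13:53286075-53286374, reverse strand): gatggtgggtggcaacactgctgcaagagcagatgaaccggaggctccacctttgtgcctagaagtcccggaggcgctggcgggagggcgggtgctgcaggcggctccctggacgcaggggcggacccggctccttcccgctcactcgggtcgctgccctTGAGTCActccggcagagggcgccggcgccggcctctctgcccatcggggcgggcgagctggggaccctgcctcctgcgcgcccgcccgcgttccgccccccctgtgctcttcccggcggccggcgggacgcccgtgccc

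The Ptk7 promoter held 1 match to the TEAD motif, on its reverse strand and 101 bases before the start, and none to the AP-1 motif. The Ror2 promoter held 1 AP-1 match, 90 bases before the start, and no TEAD match. Neither motif occurred in the windows of Mmp14 and Timp2. Of 32851 promoters of the same length, 14.7% held the TEAD motif and 7.81% the AP-1 motif. GC content was 66.0% in the window of Ptk7, 68.7% in that of Timp2, 74.7% in that of Ror2 and 56.0% in that of Mmp14. The matches describe these letters only.

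To ask how strongly the organoids transcribed each gene, CPM was divided by the length of coding sequence, in which the paper's methods say reads were counted. Genes without a coding sequence also held counts, such as Gm26904 (1732), so which length fits the counts is not settled. Ryk, a Wnt receptor with an inactive kinase domain, was highest in complete media at 53.9 ± 7.89 CPM per kb. Ror2 (14.8 ± 2.21 CPM per kb), Vangl1 (13.2 ± 2.77), Scrib (13.1 ± 1.53) and Vangl2 (10.1 ± 2.19) followed, and Ptk7 was lower at 3.66 ± 0.619 CPM per kb. Celsr2 stood at 0.873 ± 0.319, Prickle1 at 0.398 ± 0.237 and Celsr1 at 0.0601 ± 0.0752 CPM per kb. The mean of Vangl1 differed from those of Ror2 and Scrib by less than their SDs. In Wnt5a + IgG, Vangl1 averaged 34.9 ± 12.2 CPM per kb, above Ror2 at 14 ± 2.42 and Scrib at 12.3 ± 1.51. This order depends on the length used, since per kb of all exons Vangl1 was at 7.90 in Wnt5a + IgG, below Ror2 at 9.57 and Scrib at 9.54 CPM. With the union of all exons as the length, Scrib moved ahead of Ror2 and Vangl1, and the other 6 genes kept their place in complete media.

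**Figure D1:**
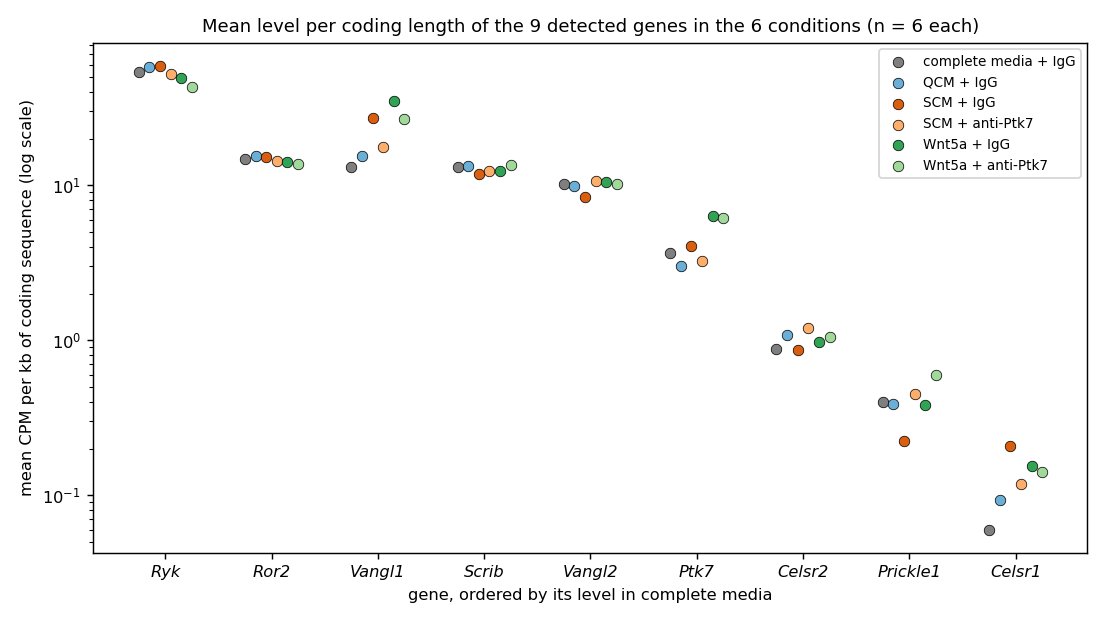
Mean level of the 9 detected genes in CPM per kb of coding sequence (log axis), ordered by their level in complete media, with 1 point for each of the 6 conditions (n = 6 libraries each). Ryk was highest in every condition, Vangl1 was below Ror2 in complete media and above it in the other 5 conditions (15.5 against 15.4 in QCM + IgG), which by the length of all exons holds in none of them, and Celsr1 was lowest at 0.0601 to 0.207 CPM per kb.

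Ror1 was not detected. It held 24 counts in all, and 33 of 36 libraries had none. Its highest condition was Wnt5a + anti-Ptk7 with a mean of 0.298 CPM, where replicate 1 held 19 of the counts and replicate 2 held 1. The remaining 4 counts were in QCM + IgG replicate 4. Ror1 failed the filter on low counts and was not tested.

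Across the 6 conditions, 2 of the 9 tested genes differed at an adjusted p under 0.05, Ptk7 (adjusted p = 0.000938) and Vangl1 (adjusted p = 2.45e-06). Over all 15497 genes tested, 39.5% passed the same F test. For the other 7 genes the adjusted p lay between 0.232 for Ryk and 0.871 for Ror2. The highest condition mean was 2.10 times the lowest for Ptk7 and 2.66 times for Vangl1. For Ror2 and Scrib these ratios were 1.12 and 1.14.

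**Figure D2:**
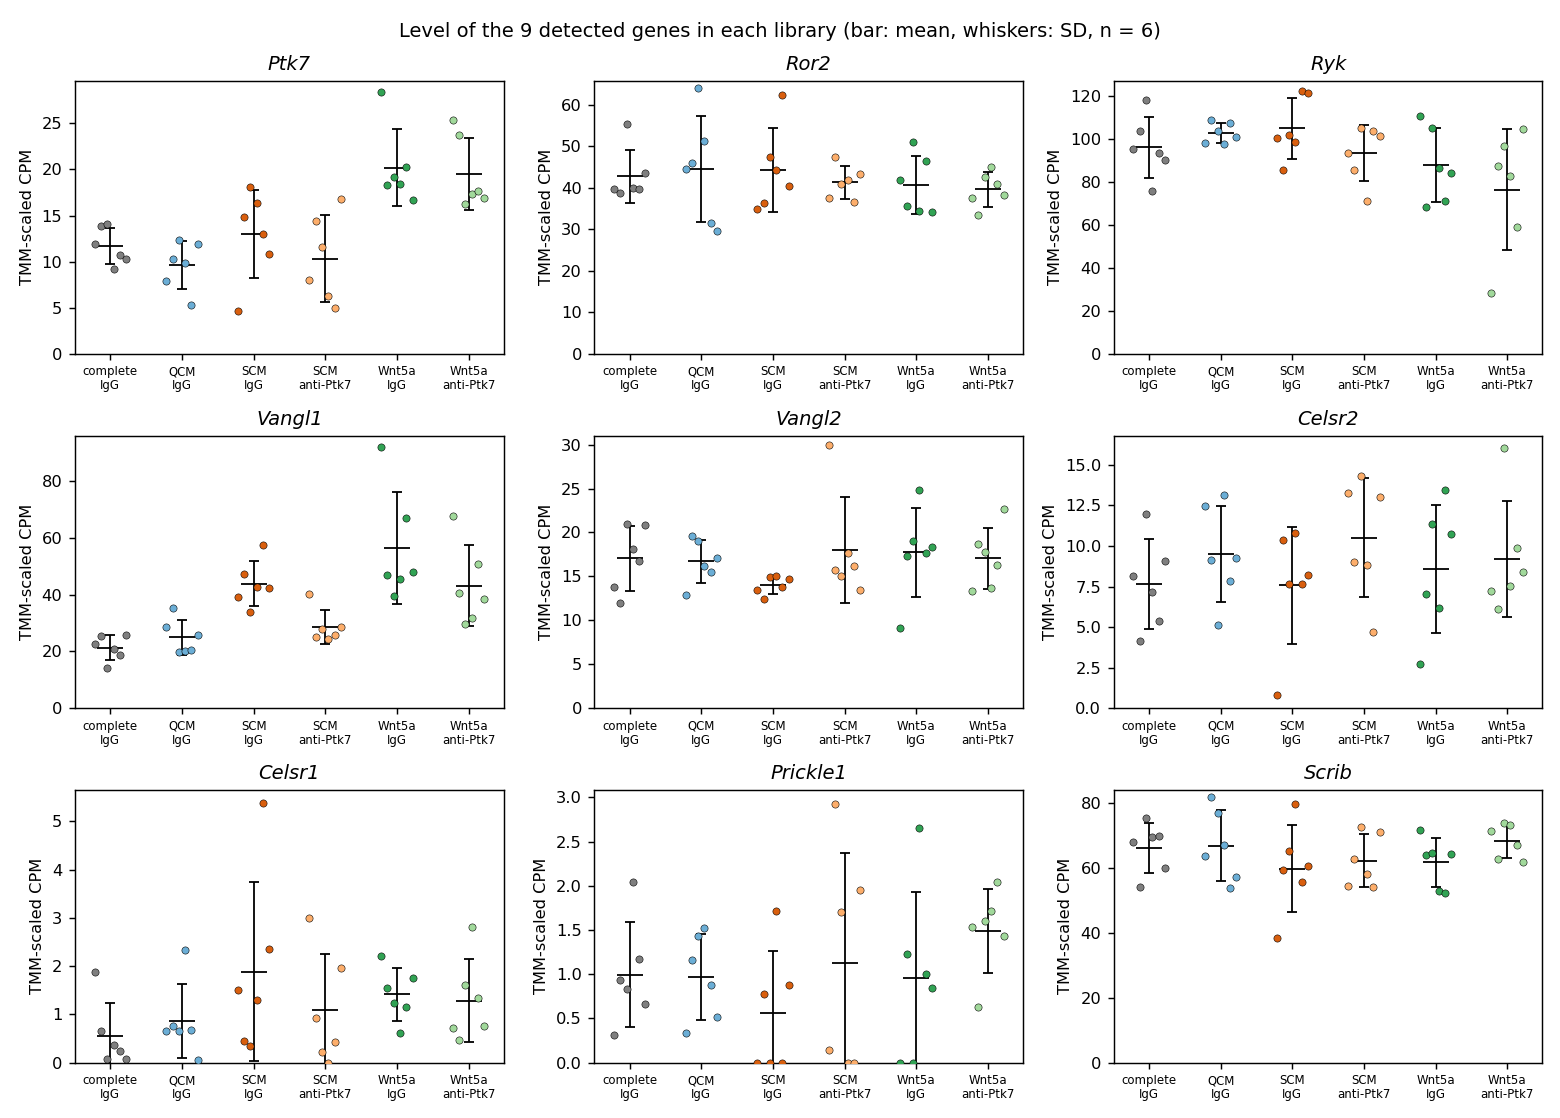
Level of the 9 detected genes in TMM-scaled CPM (linear axes from 0, scaled for each gene), with 1 point per library, a bar at the mean and whiskers at 1 SD (n = 6), cut off at 0. The 6 Wnt5a + IgG libraries sit above all 6 complete media libraries for Ptk7 (16.7 to 28.4 against 9.14 to 14.1) and for Vangl1 (39.6 to 92.2 against 14 to 25.9), while Ror2 and Scrib overlap in all conditions.

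Ptk7, the receptor against which the antibody was directed, was higher with Wnt5a. In complete media + IgG its level in the 6 libraries was 9.14, 10.3, 10.7, 11.9, 13.8 and 14.1 CPM. In Wnt5a + IgG it was 16.7, 18.3, 18.4, 19.1, 20.2 and 28.4 CPM. The conditions did not overlap, and the mean went from 11.7 ± 1.97 to 20.2 ± 4.19 CPM, a log2 fold change of 0.79 ± 0.25 (SE, adjusted p = 0.0216). The highest library, Wnt5a + IgG replicate 1, stood apart from the other 5. Without it the log2 fold change was 0.67 and the adjusted p 0.0766, and without complete media + IgG replicate 4 they were 0.72 and 0.0549. With replicate 1 left out of every condition the log2 fold change was 0.68 and passed (adjusted p = 0.0409).

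With anti-Ptk7 in Wnt5a, Ptk7 stayed at 16.2, 16.9, 17.3, 17.7, 23.7 and 25.3 CPM (mean 19.5 ± 3.92). These libraries overlapped with those given IgG. The log2 difference was −0.05, with a 95% interval from −0.53 to 0.44 (adjusted p = 0.962).

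The fibroblast-conditioned media gave no difference in Ptk7 that passed the test. QCM + IgG libraries held 5.31, 7.93, 9.87, 10.2, 11.9 and 12.4 CPM (log2 fold change −0.28 ± 0.26 against complete media, adjusted p = 0.729). SCM + IgG libraries held 4.62, 10.9, 13.04, 14.8, 16.4 and 18.1 CPM (0.16 ± 0.25 against complete media, adjusted p = 0.753, and 0.43 ± 0.25 against QCM, adjusted p = 0.393). In SCM + anti-Ptk7 the values were 4.94, 6.28, 7.95, 11.5, 14.4 and 16.8 CPM, and the log2 difference from SCM + IgG was −0.33 with a 95% interval from −0.83 to 0.16 (adjusted p = 0.538). The spread of Ptk7 was widest in the SCM conditions (SD 4.81 and 4.71 CPM), and the lowest SCM + IgG library was replicate 1. In the order of the condition means, the 2 Wnt5a conditions stood above SCM + IgG by more than 1 SD, and no other neighbours differed by more than their spread.

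Vangl1, a core planar polarity protein that forms complexes with Prickle, showed the largest differences of the 9 genes that passed the test. Complete media + IgG libraries held 14, 18.8, 20.7, 22.7, 25.4 and 25.9 CPM. SCM + IgG libraries held 33.96, 39.2, 42.3, 42.8, 47.3 and 57.6 CPM. All SCM libraries were above all complete media libraries, with means of 43.9 ± 8.07 against 21.3 ± 4.48 CPM and a log2 fold change of 1.04 ± 0.20 (adjusted p = 0.000607).

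In Wnt5a + IgG, Vangl1 was at 39.6, 45.5, 47.0, 48.0, 66.9 and 92.2 CPM. Again no library overlapped with complete media. The mean of 56.5 ± 19.8 CPM gave a log2 fold change of 1.41 ± 0.20 (adjusted p = 5.66e-06). The highest value was that of replicate 1, which was also the highest for Ptk7, and leaving out any 1 library kept the log2 fold change between 1.21 and 1.51. With replicate 1 left out of every condition, Vangl1 still passed in Wnt5a (1.23, adjusted p = 9.02e-06), in SCM (1.10, adjusted p = 7.06e-05) and in SCM against QCM (0.88, adjusted p = 0.00479).

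QCM + IgG libraries held 19.8, 20.1, 20.4, 25.9, 28.7 and 35.2 CPM of Vangl1 (mean 25.03 ± 6.17), 0.23 ± 0.20 above complete media on the log2 scale (adjusted p = 0.712). SCM exceeded QCM by 0.81 ± 0.20 on this scale (adjusted p = 0.0317), with an overlap, since the highest QCM library (35.2 CPM) was above the lowest SCM library (33.96 CPM). This difference missed the threshold when QCM + IgG replicate 3 (adjusted p = 0.108) or 4 (0.0882), or SCM + IgG replicate 1 (0.0594), 2 (0.0507) or 5 (0.0691) was left out.

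With anti-Ptk7, Vangl1 had lower means in SCM and in Wnt5a, but neither difference passed the threshold with all 36 libraries and no block. SCM + anti-Ptk7 libraries held 24.3, 25.2, 25.6, 27.8, 28.7 and 40.3 CPM, and all but the highest, replicate 1, were below every SCM + IgG library. The log2 difference was −0.61 ± 0.20 (adjusted p = 0.0905). Without replicate 1 of SCM + anti-Ptk7 it was −0.74 (adjusted p = 0.0433) and passed both thresholds, as it did with replicate 1 left out of every condition (−0.79, adjusted p = 0.013). When replicate numbers entered the model as blocks, the difference in SCM was −0.63 (adjusted p = 0.00969) and also passed. The cultures came from 6 numbered mice, but whether the replicate number is that of the mouse is not stated, so the numbers were not taken as pairs. Wnt5a + anti-Ptk7 libraries held 29.5, 31.9, 38.5, 40.6, 50.7 and 67.8 CPM, within the range of Wnt5a + IgG except for the lowest 3. The log2 difference was −0.39, with an approximate 95% interval from −0.78 to 0.00 (unadjusted p = 0.058, adjusted p = 0.357). The antibody's effect on Vangl1 in Wnt5a less that in SCM was 0.23 ± 0.28 (adjusted p = 0.999), so the 2 effects were not shown to differ.

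Vangl2, the close relative of Vangl1 with the same role in polarity complexes, passed no test, and its condition means ranged from 14.1 to 18.03 CPM. The values in SCM + IgG lay between 12.5 and 15.05 CPM and those in complete media between 11.9 and 21 CPM (log2 fold change −0.28 ± 0.18, adjusted p = 0.369). In Wnt5a + IgG they ranged from 9.15 CPM in replicate 1, the library in which Vangl1 was highest, to 24.9 CPM (0.06 ± 0.18, adjusted p = 0.871). At most 0.481% of the 50-base windows of the transcripts of any of the 10 genes also occurred in another gene, and none of these windows was shared between 2 of the 10.

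The number of Vangl1 counts per Vangl2 count within a library does not depend on the scaling between libraries. This ratio was chosen after the values were seen, so the p-values are not independent evidence. In complete media it ranged from 0.667 to 2.13 with a median of 1.19. In SCM + IgG it ranged from 2.27 to 4.196 (median 2.90) and in SCM + anti-Ptk7 from 1.34 to 2.14 (median 1.59). The SCM + IgG libraries overlapped neither with complete media nor with SCM + anti-Ptk7. On the log2 scale SCM exceeded complete media by 1.31 and QCM by 1.06, and anti-Ptk7 in SCM differed from IgG by −0.93, each with an exact two-sided permutation p of 0.00216, the smallest that 6 against 6 libraries allow, and 0.00433 after adjustment over 6 comparisons.

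In Wnt5a + IgG the ratio ranged from 1.83 to 10.1 (median 2.67), with the highest value in replicate 1, and exceeded complete media by 1.35 on the log2 scale (exact permutation p = 0.00649, adjusted 0.00974). With anti-Ptk7 in Wnt5a it ranged from 1.65 to 5.08 (median 2.26), a log2 difference of −0.36 (exact permutation p = 0.459). Of the terms of this ratio, neither passed on its own with the antibody in SCM. The log2 difference of Vangl2 was 0.36 ± 0.18 (adjusted p = 0.312), and 0.12 with replicate 1 left out of every condition.

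**Figure D3:**
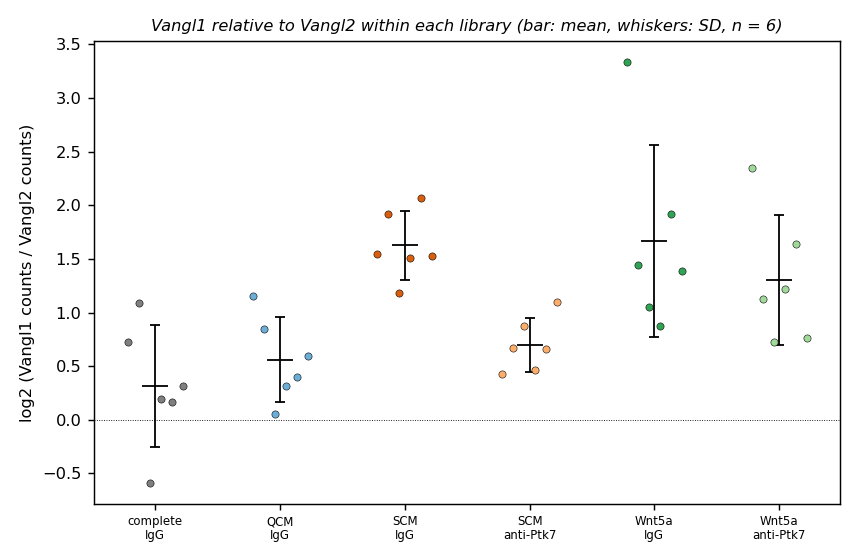
Log2 ratio of Vangl1 counts to Vangl2 counts within each library for the 6 conditions, with 1 point per library, a bar at the mean and whiskers at 1 SD (n = 6). All SCM + IgG libraries lie above all complete media and SCM + anti-Ptk7 libraries, while the Wnt5a conditions overlap and replicate 1 of Wnt5a + IgG is highest at 3.33.

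Among the remaining Wnt receptors, Ror2, a receptor tyrosine kinase that binds Wnt5a, had condition means between 39.7 and 44.5 CPM. Its log2 difference was −0.08 in Wnt5a (95% interval −0.37 to 0.21) and 0.05 in SCM (−0.24 to 0.34). Ryk had condition means between 76.4 and 104.9 CPM, and its lowest library, in Wnt5a + anti-Ptk7, held 28.03 CPM. This library was replicate 1, and the other 5 held 59.1 to 104.5 CPM. The log2 difference with anti-Ptk7 in Wnt5a was −0.20 (adjusted p = 0.673), and 0.05 with replicate 1 left out of every condition. With anti-Ptk7 in SCM it was −0.17 (adjusted p = 0.671).

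Scrib, the scaffold that binds Vangl, varied least next to Ror2, between 59.7 and 68.2 CPM, and its log2 differences were between −0.16 and 0.15 in the 6 comparisons of 2 conditions. Celsr2, an atypical cadherin that bridges neighbouring cells in polarity complexes, had means between 7.58 and 10.5 CPM. Its lowest library was SCM + IgG replicate 1 at 0.781 CPM, where the other 5 of that condition held 7.63 to 10.8 CPM.

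The 2 genes near the detection limit were measured with little precision. Celsr1, an atypical cadherin related to Celsr2, had 553 counts over all libraries, and its mean went from 0.548 ± 0.686 CPM in complete media to 1.89 ± 1.86 in SCM (log2 fold change 1.80 ± 0.78, adjusted p = 0.137) and 1.42 ± 0.55 in Wnt5a (1.41 ± 0.78, adjusted p = 0.206). Complete media + IgG replicate 1 alone held 18 of the 35 counts of its condition. Without it both differences passed, at 2.71 (adjusted p = 0.0305) in SCM and 2.33 (adjusted p = 0.0451) in Wnt5a. With replicate 1 left out of every condition only that in SCM passed (2.77, adjusted p = 0.0326). Prickle1, a cytoplasmic partner of Vangl, had 511 counts, was at 0 in 7 libraries, and had condition means between 0.562 and 1.49 CPM. A change of the size seen for Ptk7 was not detectable in either gene with these libraries, since the SE of their log2 differences was between 0.73 and 0.91. The parts of depth and of spread between libraries in this SE were not tested.

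**Figure D4:**
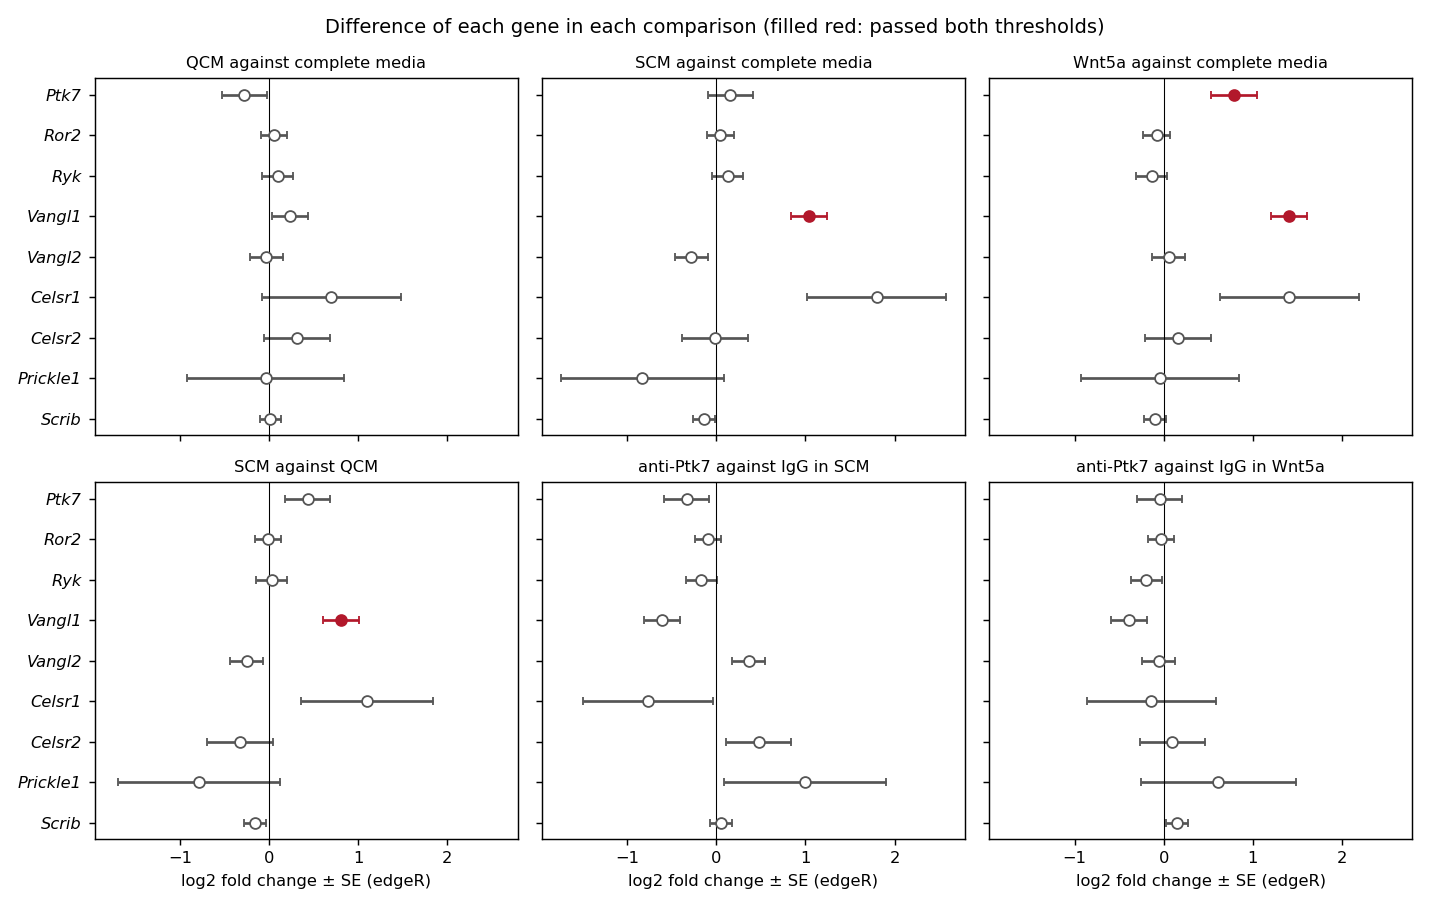
Log2 fold change with its SE for the 9 detected genes in 6 comparisons (edgeR quasi-likelihood test), filled red where the adjusted p was under 0.05 and the fold change over 1.5. Vangl1 passes in SCM and in Wnt5a against complete media (1.04 and 1.41) and in SCM against QCM (0.81), and Ptk7 passes in Wnt5a (0.79).

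Counted over the comparisons, 2 of 9 genes passed in Wnt5a against complete media, where 10.2% of all genes tested did. In SCM against complete media it was 1 of 9 (6.08% of all genes), and in SCM against QCM 1 of 9 (0.903% of all genes). None of the 9 passed in QCM against complete media (0.374% of all genes), with anti-Ptk7 in SCM (1.23%) or with anti-Ptk7 in Wnt5a (0.884%). At an unadjusted p under 0.05 these 3 comparisons held 0, 1 (Vangl1) and 0 of the 9 genes, against 1858, 2654 and 2332 of the 15497 genes. DESeq2 and voom with limma also called 0 of the 9 in each. For the difference between the antibody effects, none of the 9 and 0.0% of all genes passed, with 602 genes at an unadjusted p under 0.05 and 0 genes by DESeq2 or voom. A single gene is 11.1% of 9, so these counts are too small to set the genes apart from all genes tested. Their median difference on the log2 scale was 0.06 in Wnt5a and 0.05 in SCM, beside 0.01 over all genes in both.

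The other genes of noncanonical Wnt signaling were described from lists by function. Of the other planar polarity core and Dishevelled genes (Fzd3, Fzd6, Celsr3, Prickle2 to Prickle4, Dvl1 to Dvl3 and Ankrd6), 8 of 10 were tested and 0 passed in any of the 6 comparisons of 2 conditions. Fzd6, a polarity Frizzled, had a log2 fold change of 0.40 ± 0.17 in Wnt5a (adjusted p = 0.0892). Of 8 Frizzled and Lrp receptors, including the Ptk7 partner Fzd7, 8 were tested and 0 passed. Fzd7 had −0.43 ± 0.22 in Wnt5a (adjusted p = 0.159). In SCM + IgG it averaged 29.87 CPM, against 45.38 CPM in complete media, and it passed there with replicate numbers as blocks. The median of these lists in Wnt5a was 0.12 and −0.15.

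Of 7 genes for noncanonical ligands and their secretion, 4 were tested. Wls, which carries Wnt proteins to the cell surface, rose in Wnt5a (log2 fold change 0.62 ± 0.11, adjusted p = 6.49e-05). Wnt5b, a ligand related to Wnt5a, was higher with anti-Ptk7 in SCM (3.43 ± 0.97, adjusted p = 0.0474), with means of only 1.75 ± 1.49 against 0.162 ± 0.259 CPM and overlapping libraries. This call was lost in 24 of the 36 models that left out 1 library (adjusted p up to 0.124, without SCM + IgG replicate 1), with both voom models (0.123 and 0.0911) without the filter on low counts (0.0727) and with replicate 1 left out of every condition (0.0989). The Wnt5a transcript itself averaged 0.308 CPM or less in every condition.

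Of 13 genes for proteases that cut Ptk7 and their inhibitors, 11 were tested and 2 passed in Wnt5a, where 10.2% of all genes did. Mmp14, the membrane metalloprotease that cleaves Ptk7, had a median of 7.41 CPM (4.28 to 12.6) in complete media and 17.4 CPM (11.9 to 23.1) in Wnt5a + IgG, and its mean was higher by 1.04 ± 0.27 on the log2 scale (adjusted p = 0.00494). With anti-Ptk7 in Wnt5a it had a median of 21.1 CPM (0.33 ± 0.26, adjusted p = 0.623). Adam17, the other protease known to shed Ptk7, was at 71.0 ± 10.6 CPM in complete media and 78.2 ± 6.66 CPM in Wnt5a (0.14 ± 0.12, adjusted p = 0.461). Psen2, a γ-secretase subunit, fell by 0.61 ± 0.16 in SCM (adjusted p = 0.0105). It missed the fold threshold without SCM + IgG replicate 4 (−0.57) or complete media + IgG replicate 3 (−0.53).

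Timp2, a secreted inhibitor of metalloproteases that also binds MMP14, was the only gene of the Wnt lists that passed in SCM and in Wnt5a and again, in the opposite direction, with the antibody in both. Complete media + IgG libraries held between 2.58 and 4.796 CPM. QCM + IgG libraries held between 5.04 and 8.57 CPM, above all of complete media, with a log2 difference of 0.80 ± 0.30 that did not pass (adjusted p = 0.239). It passed with replicate 1 left out of every condition (0.94, adjusted p = 0.0175). SCM + IgG libraries held 7.40, 7.85, 12.4, 13.04, 13.4 and 14.8 CPM, above all of complete media (log2 fold change 1.58 ± 0.30, adjusted p = 0.000442). SCM against QCM did not pass (0.78 ± 0.29, adjusted p = 0.145). With anti-Ptk7 in SCM they held 2.99, 3.43, 4.10, 4.60, 6.15 and 12.7 CPM. Replicate 1 alone overlapped with IgG (−1.02 ± 0.29, adjusted p = 0.0488).

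In Wnt5a + IgG, Timp2 was at 11.2, 15.8, 17.2, 18.4, 21.4 and 41.9 CPM (2.45 ± 0.30 above complete media, adjusted p = 4.17e-07). With anti-Ptk7 in Wnt5a it was at 6.71, 7.12, 7.99, 8.53, 11.5 and 14.7 CPM (−1.15 ± 0.28, adjusted p = 0.019). The highest 2 of these overlapped with the lowest IgG library. The antibody differences of Timp2 lay close to the threshold. Without Wnt5a + IgG replicate 1 the adjusted p in Wnt5a was 0.0903, and it was 0.0503 and 0.0517 without Wnt5a + anti-Ptk7 replicates 2 and 4. In SCM the call was lost in 29 of the 36 models that left out 1 library, with the highest adjusted p (0.132) without SCM + IgG replicate 1, and also without the filter on low counts (0.0684). A model of only the groups compared gave 0.17 in SCM and 0.0671 in Wnt5a, so neither antibody difference passed there. With replicate 1 left out of every condition both passed, at −1.37 in SCM (adjusted p = 0.000464) and −1.003 in Wnt5a (adjusted p = 0.00846).

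**Figure D5:**
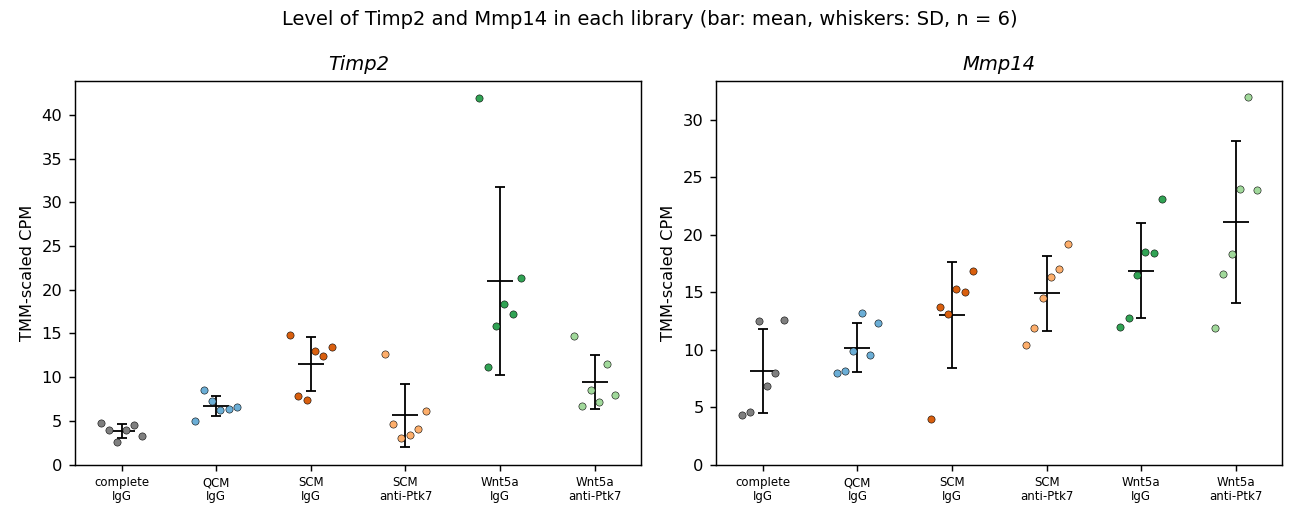
Level of Timp2 and Mmp14 in TMM-scaled CPM (linear axes from 0), with 1 point per library, a bar at the mean and whiskers at 1 SD (n = 6). Timp2 is higher in SCM + IgG and Wnt5a + IgG than in complete media and lower with anti-Ptk7 in both, and Mmp14 is higher in Wnt5a + IgG than in complete media with no lower level under anti-Ptk7.

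Among 16 genes of the Scribble module and apical polarity complexes, 2 passed in Wnt5a (10.2% of all genes), Dlg5 (0.66 ± 0.20, adjusted p = 0.0159) and Pard6b (0.59 ± 0.13, adjusted p = 0.000805), both scaffolds of cell polarity. Dlg5 was lost without Wnt5a + IgG replicate 1 (adjusted p = 0.103), and fell under the fold threshold with both voom models (0.533 and 0.583). Pard6b fell under this threshold in many of the alternatives (0.50 without Wnt5a + IgG replicate 1). Of 18 planar polarity effectors 16 were tested, and 3 rose in Wnt5a (10.2% of all genes passed in either direction). Among them were Smurf1, a ubiquitin ligase that acts on Prickle (1.38 ± 0.22, adjusted p = 2.38e-05), and Jun, a subunit of AP-1 (0.64 ± 0.15, adjusted p = 0.00272). Smurf1 also rose in SCM (1.00 ± 0.22, adjusted p = 0.00194), where 6.08% of all genes passed.

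Of 21 genes of the Wnt calcium arm 20 were tested, and 3 rose in Wnt5a, where 10.2% of all genes passed in either direction, namely the calcineurin-regulated factor Nfatc1 (0.93 ± 0.22, adjusted p = 0.00183), the kinase subunit Camk2b (0.82 ± 0.22, adjusted p = 0.00686) and the IP3 receptor Itpr3 (0.66 ± 0.18, adjusted p = 0.00773). Of 7 Fat and Dachsous genes 3 were tested, and the atypical cadherin Fat1 rose in Wnt5a (0.69 ± 0.17, adjusted p = 0.00247). Fat2, at 0 in all complete media libraries and at 0 to 5.30 CPM in Wnt5a + IgG, also passed (adjusted p = 0.00791), but not with either voom model (adjusted p = 0.0876 and 0.12). Without Wnt5a + IgG replicate 1, Itpr3 (0.55), Fat1 (0.58) and Wls (0.57) fell just under the fold threshold. The same held for Itpr3 without complete media + IgG replicate 6 (0.58), for Wls without Wnt5a + IgG replicate 6 (0.57), and for Jun without complete media + IgG replicate 2 (0.58) or Wnt5a + IgG replicate 5 (0.57). With replicate 1 left out of every condition, Dlg5, Pard6b, Jun, Itpr3 and Wls (0.50 to 0.57) were under the fold threshold. In addition to the QCM call of Timp2, calls were gained by Mmp14 (0.73, adjusted p = 0.0232) and Nfatc1 (0.64, adjusted p = 0.0475) in SCM and by Smurf1 in SCM against QCM (0.65, adjusted p = 0.0312). In Wnt5a the list medians were 0.19 for the Scribble module, 0.23 for the effectors and 0.23 for the calcium arm, beside 0.01 for all genes.

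Marker levels of other cell types moved in some of the same comparisons. Beside the counts that follow, the share of all genes passing was 10.2% in Wnt5a, 6.08% in SCM, 0.374% in QCM, and 1.23% and 0.884% with anti-Ptk7 in SCM and in Wnt5a. In Wnt5a, 3 of 5 tested tuft cell markers (Dclk1, Trpm5 and Avil) rose, and the summed level of the 7 tuft markers was 22.2 to 36.1 CPM in Wnt5a + IgG against 9.38 to 15.2 CPM in complete media. The summed fibroblast markers were at 16 to 41.2 CPM in Wnt5a + IgG and 4.17 to 8.34 CPM in complete media, of which Fn1 alone gave 6.78 to 35.9 CPM in Wnt5a + IgG, while Col3a1, Thy1 and Dcn were at 0. Epithelial markers rose in 5 of 9 genes in Wnt5a and in 4 of 9 in SCM (Krt8, Krt18, Krt19 and Krt20 in both, and Cdh1 in Wnt5a). Cdx1 had lower means in Wnt5a (−0.51 on the log2 scale, adjusted p = 9.57e-05) and SCM (−0.30, adjusted p = 0.0225), under the fold threshold, and Cdx2 had −0.20 and −0.21. The summed range of all 9 epithelial markers was 15550 to 29400 CPM in Wnt5a + IgG, 13260 to 20900 in SCM + IgG and 9014 to 12350 in complete media. Of 8 enterocyte markers, 4 rose in SCM (Apoa4, Apoa1, Fabp1 and Alpi) and 3 in Wnt5a (Apoa4, Fabp1 and Alpi), and Alpi fell with anti-Ptk7 in both. In QCM, where Ptk7 and Vangl1 passed no test, Apoa4, Fabp1 and Alpi also rose, as did Ang4 and the enteroendocrine gene Cck, and 0 of the enterocyte and epithelial markers passed in SCM against QCM. The Paneth cell marker Mmp7 passed there (0.68 ± 0.16, adjusted p = 0.022), where 0.903% of all genes did. Of 5 tested Paneth cell markers, Mmp7 and Ang4 rose in SCM and in Wnt5a, and Lyz1 fell with anti-Ptk7 in Wnt5a. Of 8 stem cell markers, Smoc2 fell in SCM and in Wnt5a, and Rnf43 rose in Wnt5a. Of 8 enteroendocrine markers, Cck fell with anti-Ptk7 in both, and Sct in SCM. None of the 9 proliferation genes passed in Wnt5a or SCM. The part of these cell types in the levels of Ptk7 and Vangl1 was not tested.

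To describe which genes followed Ptk7, Pearson's r of log2 CPM was taken over all 36 libraries among 12444 genes. The 5 genes most like Ptk7 were Cdcp1 (r = 0.799), Aplp2 (0.793), Arid1b (0.786), Nedd4l (0.784) and Vsig10 (0.778). With the condition means taken out these values were 0.729, 0.749, 0.805, 0.663 and 0.700. The 3 most like Vangl1 were Thbs1 (0.930), Ano1 (0.919) and Osbpl3 (0.914), with 0.801, 0.750 and 0.772 after removal of the condition means. Thbs1 encodes a secreted matrix glycoprotein and Ano1 a calcium-activated chloride channel.

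Between Ptk7 and Vangl1 themselves r was 0.535, and 0.206 with the condition means taken out. Within conditions Ptk7 was closer to Scrib (0.632 with the means taken out) than to any of the other 5 genes compared. These correlations describe 36 libraries that share 6 conditions and a common scaling. The correlation with log2 library total was −0.01 for Ptk7 and 0.01 for Vangl1.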

How the data were processed

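RNA of 36 mouse organoid cultures was sequenced by the authors as 50-base single-end reads from amplified cDNA (SMART-Seq v4 and Nextera XT) and aligned with GSNAP to mm10. The deposited values are raw counts, not normalized. The paper's methods name reads within coding sequences as those counted. Genes without a coding sequence, such as the lincRNA Gm26904 (1732 counts), also hold counts, so the values are not of coding sequence alone. The annotation used for counting, and whether strand was used, are not given in the sources used here. A table of the whole series was identical to the libraries' own files in 36 of 36 columns and was not used.

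Gene names, positions and lengths came from GENCODE vM21 (GRCm38), with 233 identifiers left without a symbol. Counts were filtered with filterByExpr, scaled by TMM and fitted for all 6 conditions together with the quasi-likelihood test of edgeR 4.0.16 (R 4.3.3), without covariates. This left 15497 genes, over which p-values were adjusted by the Benjamini-Hochberg method. Genes were called at an adjusted p under 0.05 if the fold change also exceeded 1.5. CPM values are TMM-scaled, and log2 CPM used a prior count of 2. Intervals are 95% intervals of the log2 fold change by a normal approximation from its SE, and are therefore somewhat narrower than the F test implies. The authors' stated method, voom with limma on quantile-normalized values, was run as an alternative (limma 3.58.1), as were voom with TMM, DESeq2 1.42.0, other scalings and filters, glmTreat (a test against a fold change of 1.5), the replicate number as a block, each library left out in turn, and replicate 1 left out of every condition.

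The organoids came from 6 mice, but the labels tie no replicate number to a mouse, so p-values measure the spread between these libraries. By its general statement on statistics, the study takes a replicate as a mouse unless it says otherwise. Replicates of a condition differed by more than sampling noise (chi-square per degree of freedom of at least 7.61). Totals per library set the counting precision, which is given in the text for the sparsest genes. The edgeR, voom and DESeq2 steps were tested on simulated data.

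All 10 genes are named. A mean under 0.5 CPM over all libraries counted as not detected, and every library's value is given for Ptk7 and each gene called between 2 conditions. Genes of the lists were named where called, up to 4 a list by absolute log2 fold change, and 1 such gene is not reported here. For likeness, the 5 genes with the highest r with Ptk7, and the 3 with the highest r with each other called gene, were taken among tested genes with a mean log2 CPM over 1. Named outside this rule, after values were seen, were Fzd6, Fzd7, Fzd5, Adam17 and the transcript of Wnt5a. The 10 genes and the lists were chosen with earlier results of these data known.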

Additional observations from a re-analysis of the deposited data

Results flagged for a closer look

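In 54 groups of 6 libraries (9 detected genes in 6 conditions), the gap between the highest or lowest library and its nearest neighbour in log2 CPM was divided by the whole range of the group. This passed Dixon's 95% critical value in 7 groups. Chance gives about 1 in 20, or 2.7 of 54. Of the 7 values that stood apart, 5 were in a library numbered replicate 1.

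Wnt5a + IgG replicate 1 was high for Ptk7 at 28.4 CPM, where the other 5 libraries held 16.7 to 20.2, and low for Vangl2 at 9.15 CPM. SCM + anti-Ptk7 replicate 1 was high for both Vangl1 (40.3 CPM) and Vangl2 (29.996 CPM). SCM + IgG replicate 1 was low for Celsr2 at 0.781 CPM. Complete media + IgG replicate 3 was high for Ror2 at 55.4 CPM, and Wnt5a + anti-Ptk7 replicate 2 was low for Prickle1 at 0.624 CPM.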

How the results depend on the processing

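Every alternative was run. Vangl1 passed in SCM and in Wnt5a against complete media under each of them, except in SCM with glmTreat, and Ptk7 passed in Wnt5a except with glmTreat and without the libraries named above. With glmTreat, 0 of the 9 genes were called in SCM against complete media (1 by the quasi-likelihood test), 1 in Wnt5a (2) and 0 in SCM against QCM (1). Of the list calls named above, glmTreat lost Mmp14, Wls, Dlg5, Pard6b, Jun, Nfatc1, Camk2b, Itpr3 and Fat1 in Wnt5a. It also lost Smurf1 and Psen2 in SCM, the antibody calls of Timp2 in SCM and in Wnt5a, and that of Wnt5b in SCM. Leaving out 1 library gave 1 to 2 genes in SCM, 1 to 3 in Wnt5a, 0 to 1 in SCM against QCM and 0 to 1 for the antibody in SCM. Of the 5 genes most like Ptk7, 2 stayed among the top 5 with the condition means taken out and 2 by Spearman's rank correlation. Of the 3 most like Vangl1, 1 stayed in each case. Other scalings moved no mean level by over 1 SD. Over 2945 alternative log2 fold changes, 98 changed sign, none of them in a gene and comparison that passed.

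Same-numbered libraries of different conditions had a mean correlation of deviations of 0.092 (34 of 90 pairs over 0.1), against −0.018 for different numbers. For number 1 the mean was 0.241 (15 of 15 pairs over 0.1) and for number 3 it was 0.134 (11 of 15), while the other numbers had 0 to 3 of 15. Since this did not hold for every number, and no label ties a number to a mouse, the numbers were not taken as pairs, and pairing was not settled. With replicate 1 left out of every condition, an alternative added after the values were seen, 2 of the 9 genes were called in SCM (with Celsr1) and 1 with anti-Ptk7 in SCM (Vangl1), and over all genes 123 were called in QCM against complete media and 278 in SCM against QCM. With a replicate block, Vangl1 with anti-Ptk7 in SCM had a log2 difference of −0.63 (adjusted p = 0.00969), and 1 of the 9 genes was called there (0 without). The block raised the calls over all genes from 58 to 178 in QCM against complete media, from 140 to 496 in SCM against QCM, from 190 to 399 with anti-Ptk7 in SCM, from 137 to 255 with anti-Ptk7 in Wnt5a and from 0 to 3 for the difference of the antibody effects, and changed no other call of the 9 genes. In the Wnt lists it added Fzd7 and Mmp14 in SCM, Itpr2 in Wnt5a, Smurf1 in SCM against QCM and Timp2 in QCM, and took away none.

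Over all genes, DESeq2 called 264 in SCM against QCM and 295 with anti-Ptk7 in SCM. A model of only the groups compared called 265 and 86. Leaving out 1 library gave 35 to 250 in SCM against QCM, 105 to 232 with anti-Ptk7 in SCM, 81 to 157 with anti-Ptk7 in Wnt5a and 37 to 65 in QCM against complete media. Without the fold threshold, 1842 genes passed in SCM against complete media (942 with it), 3386 in Wnt5a (1576), 102 in QCM (58), 267 in SCM against QCM, 422 with anti-Ptk7 in SCM and 398 in Wnt5a. With glmTreat these counts were 210, 491, 2, 4, 12 and 2. Celsr1, Prickle1 and Ror1 held few counts, and for them the intervals are wide or no test was made.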

Other observations

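Fzd5, a Frizzled receptor for Wnt5a that is expressed in intestinal crypts, was noticed after its values were seen. It averaged 42.1 ± 6.08 CPM in complete media + IgG and 33.5 ± 4.27 CPM in Wnt5a + IgG, a log2 fold change of −0.33 ± 0.11 (adjusted p = 0.0221). With anti-Ptk7 its mean was 29.8 ± 3.79 against 39.8 ± 4.59 CPM in SCM (−0.42 ± 0.11, adjusted p = 0.0261) and 26.2 ± 1.69 against 33.5 ± 4.27 CPM in Wnt5a (−0.35 ± 0.11, adjusted p = 0.0657). None of these differences reached the fold threshold of 1.5. In Wnt5a the libraries with IgG and with anti-Ptk7 did not overlap (lowest with IgG above the highest with anti-Ptk7, 28.2 CPM), and they overlapped in SCM.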
